A study of Mus musculus with 2 samples.

Results

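The 4 genes described here encode the cytokine GM-CSF (Csf2) and the chains of its receptor: the ligand-binding alpha chain (Csf2ra), the common beta chain (Csf2rb) and a second mouse beta chain (Csf2rb2). They were found by symbol in both libraries, where they are 4 of 31053 listed genes. GM-CSF is a secreted growth factor that signals through a receptor made of an alpha chain and a beta chain, the beta chain recruiting JAK2, which activates STAT5. In mice, the common beta chain also serves the receptors for IL-3 and IL-5, and the Csf2rb2 product pairs with the IL-3 receptor. In the small intestine, GM-CSF made by innate lymphoid cells (ILCs) and T cells is known for maintaining dendritic cells and macrophages.

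The data were droplet single-cell RNA sequencing of cells of the lamina propria (LP) of the small intestine (SI) of C57BL/6 mice, in 2 libraries, 1 per genotype. The Zfp36-/- library, titled TTP-KO, and the WT library each pooled cells from 4 mice. Tristetraprolin (TTP), the product of Zfp36, binds AU-rich elements in the tails of short-lived transcripts, Csf2 among them, and promotes their decay. The labels name no tissue restriction for the Zfp36-/- genotype, so the myeloid and lymphoid cells of these mice are taken to share it. No treatment, age or sex is given in the labels. The sort, a gate for ILCs, took live CD45+ cells with CD90.2 and CD127 and without CD3, TCRβ or lineage markers.

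Csf2 lies on mouse chromosome 11 (54247271 to 54249667, minus strand, build mm10; ENSMUSG00000018916) and has 4 exons. Its 3′ untranslated region of 317 bases holds 9 copies, some overlapping, of the heptamer TATTTAT, a minimal binding motif of TTP. The densest stretch is shown because it is the AU-rich element through which TTP is known to act on this transcript. It occupies bases 231 to 260 of the untranslated region, at chr11:54247328-54247357 on the minus strand, and is written 5′ to 3′ in DNA letters with its 5 overlapping heptamers in capitals.
Csf2 AU-rich element: ttttaaaTATTTATTTATTTATTTATTTAT
Among 20881 genes with an annotated 3′ untranslated region, searched on the transcribed strand, 27.5% held at least 1 TATTTAT and 0.129% held as many as Csf2. No TATTTAT was found in the 3′ untranslated regions of Csf2ra (602 bases), Csf2rb (1816 bases) or Csf2rb2 (1810 bases). A match describes letters only and is not a measured binding site.

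Csf2ra lies on chromosome 19 (61223957 to 61228429, minus strand; ENSMUSG00000059326) with 12 exons. Csf2rb lies on chromosome 15 (78325752 to 78353847, plus strand; ENSMUSG00000071713) with 15 exons, and its paralog Csf2rb2 is its neighbour (78282507 to 78305721, minus strand; ENSMUSG00000071714) with 14 exons. The coding sequences of the beta chains were identical at 95.2% of aligned positions. Over the last 500 bases of the transcripts, where a 3′ library samples most, identity was 83.1% and the longest stretch of Csf2rb found unbroken in Csf2rb2 was 36 bases. How reads that match both genes were counted is not given in the sources used here, so the division of counts between Csf2rb and Csf2rb2 is uncertain.

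The libraries held 3522 Zfp36-/- and 3593 WT barcodes, with 27733804 and 24721524 unique molecular identifiers (UMIs, each counting 1 captured transcript). After filtering, 3334 Zfp36-/- and 3360 WT cells were kept, with medians of 5336.5 and 5292.5 UMIs, and 2 barcodes occurred in both libraries. Zfp36 itself was at 377 CPM (CPM being the UMIs of a gene per 1000000 UMIs of the cells) in the Zfp36-/- library and at 634 CPM in the WT library; which part of the gene is deleted is not given, so these 3′ tags do not check the label. Y-linked transcripts without Xist were seen in 448 Zfp36-/- cells (13.4%) and in 0 of 3360 WT cells, which allows up to 0.0893%. Among cells with Xist and no Y-linked transcript, the log2 ratios of Csf2 given below for ILC2 and ILC3 were -1.43 and -1.63. Cells were assigned to types by marker UMIs: at least 3 of 6 T-cell genes, 9 dendritic-cell genes or 8 macrophage genes, and otherwise at least 2 genes of an ILC list. Each genotype is 1 library, so no test between genotypes was possible, no p-value is given, and all intervals are 95% intervals that cover counting error only.

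Beside ILCs, the libraries held cells of other types, and their numbers differed between the libraries. T cells were 44 of the Zfp36-/- cells (1.32%) and 1107 of the WT cells (32.9%), although the labels give both genotypes the same sort against CD3 and TCRβ. Whether the sort differed in practice is not given, and its effect on which T cells were sequenced cannot be told apart from the genotype. The dendritic-cell gate held 118 Zfp36-/- and 22 WT cells, the macrophage gate 107 and 45, and 99 and 18 further cells passed both myeloid gates. ILC2 were 1149 Zfp36-/- and 598 WT cells, and ILC3 were 1169 and 1027. ILC2 are the ILCs that make type 2 cytokines under GATA3, and ILC3 are those known for making IL-22. For this reason, each member is given within gates below.

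Over all kept cells, Csf2 was lower and the receptor chains were higher in the Zfp36-/- library. Csf2 had 3635 UMIs (133 CPM) in Zfp36-/- cells and 6847 UMIs (288 CPM) in WT cells, a log2 ratio of -1.11 (interval -1.17 to -1.05). The chains Csf2ra, Csf2rb and Csf2rb2 had log2 ratios of 1.64, 3.28 and 2.80. With a minimum of 50 UMIs, 8.33% of all genes tested were 2-fold or more higher in the Zfp36-/- library over all kept cells and 3.3% were 2-fold or more lower. These sums take in the make-up of the libraries as well as the level within cells. With the Zfp36-/- gates weighted to the WT share of UMIs, the log2 ratio of Csf2 was -0.92.

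ILC2 held Csf2 at a higher level than ILC3 as a whole, in both libraries. Their level was 346 CPM (332 to 360; 2373 UMIs in 1149 cells) in Zfp36-/- cells, against 926 CPM (896 to 956; 3689 UMIs in 598 cells) in WT cells. The Zfp36-/- level was thus the lower one, with a log2 ratio of -1.42 (-1.50 to -1.35). In ILC2, 0.975% of 9128 genes with at least 50 UMIs were 2-fold or more lower in the Zfp36-/- library and 3.12% were 2-fold or more higher; the median log2 ratio over these genes was 0.17. Csf2 is among the 89 genes that were lower.

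A smaller share of Zfp36-/- ILC2 held Csf2 at equal depth, and those that did held less of it. With every cell thinned to 2000 UMIs, a Csf2 UMI was found in 238 of 1133 Zfp36-/- ILC2 (21%, interval 18.7 to 23.5) and in 195 of 591 WT ILC2 (33.0%, 29.2 to 36.9). At the depth as deposited, with medians of 5736 and 6197 UMIs, the shares were 33.3% and 45.5%. Cells rich in immunoglobulin transcripts should lack Csf2 and were taken as a rough reference for free RNA. After thinning, they had a Csf2 UMI in 0 of 146 Zfp36-/- and 0 of 95 WT cells, at medians of 31081 and 39568 UMIs before it. Thinning takes away more of the UMIs of these deeper cells than of ILC2, so these shares of 0 do not set a level of free RNA. As deposited, 1.37% of the Zfp36-/- and 4.21% of the WT immunoglobulin-rich cells held a Csf2 UMI, with means of 0.0753 and 0.0421 UMIs per cell, against 2.07 per Zfp36-/- and 6.17 per WT ILC2.

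**Figure D1:**
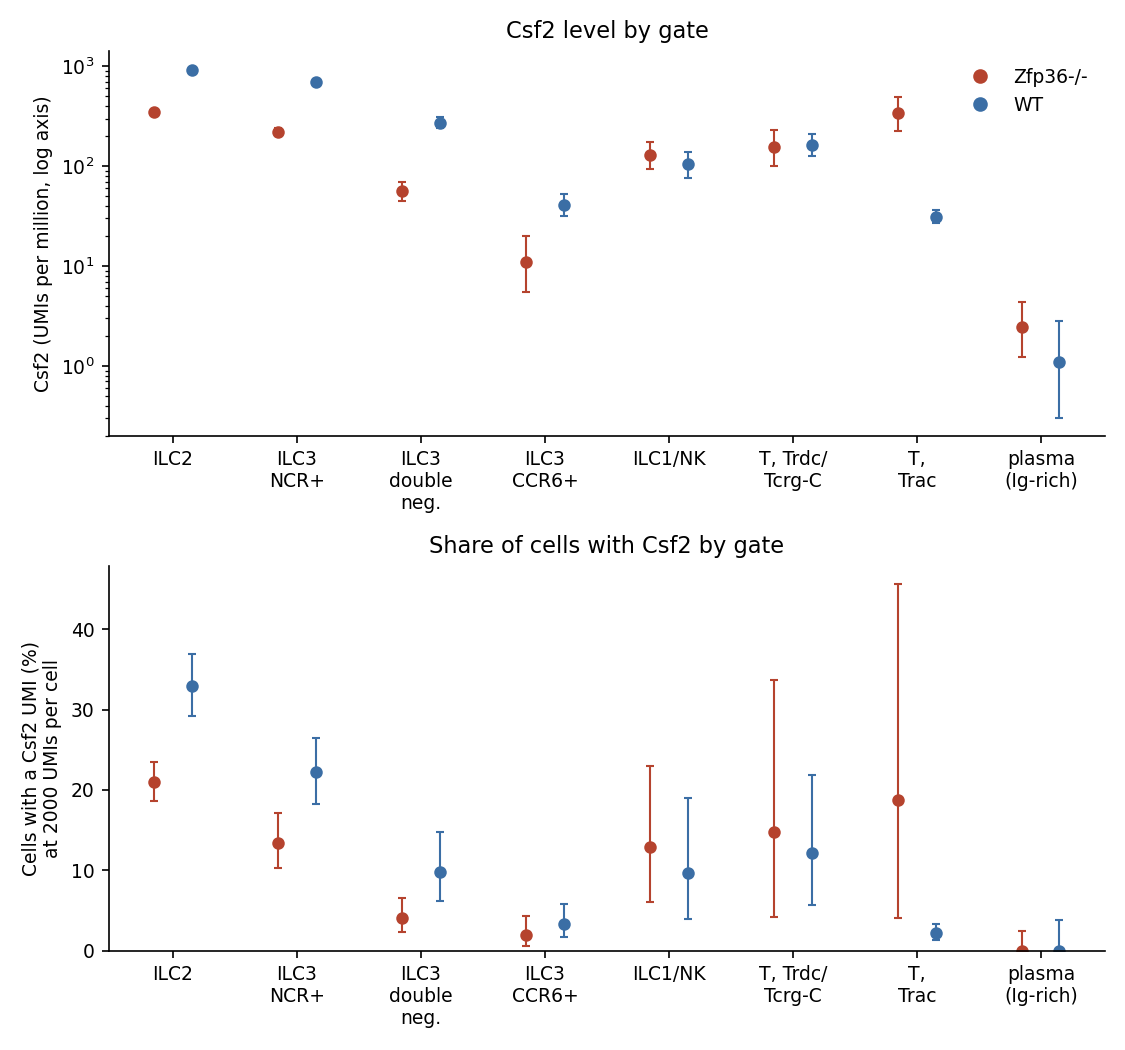
Csf2 level in CPM (top, log axis, with 95% Poisson intervals) and percent of cells with a Csf2 UMI after thinning to 2000 UMIs (bottom, with exact 95% intervals), by cell gate, Zfp36-/- left of WT in each pair. In CPM, ILC2 stood highest in both libraries, at 346 CPM in Zfp36-/- cells and 926 CPM in WT cells. In the Zfp36-/- library, T cells with a Trac UMI were close to them, at 339 CPM (28 UMIs in 16 cells).

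The share of ILC2 with at least 10 Csf2 UMIs differed more between the libraries than the share with 1 UMI. After thinning, 10 of 1133 Zfp36-/- ILC2 (0.883%) held at least 10 Csf2 UMIs, against 31 of 591 WT ILC2 (5.25%). Cells with exactly 1 UMI were 10.2% of Zfp36-/- ILC2 and 11.2% of WT ILC2, so the libraries were close at the low end. As deposited, the richest Zfp36-/- ILC2 held 64 Csf2 UMIs and the richest WT ILC2 held 190. Among cells with any Csf2 UMI, the mean was 6.20 UMIs in Zfp36-/- ILC2 and 13.6 in WT ILC2. The 5% of ILC2 richest in Csf2 held 60.0% of its UMIs in the Zfp36-/- library and 48.0% in the WT library.

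**Figure D2:**
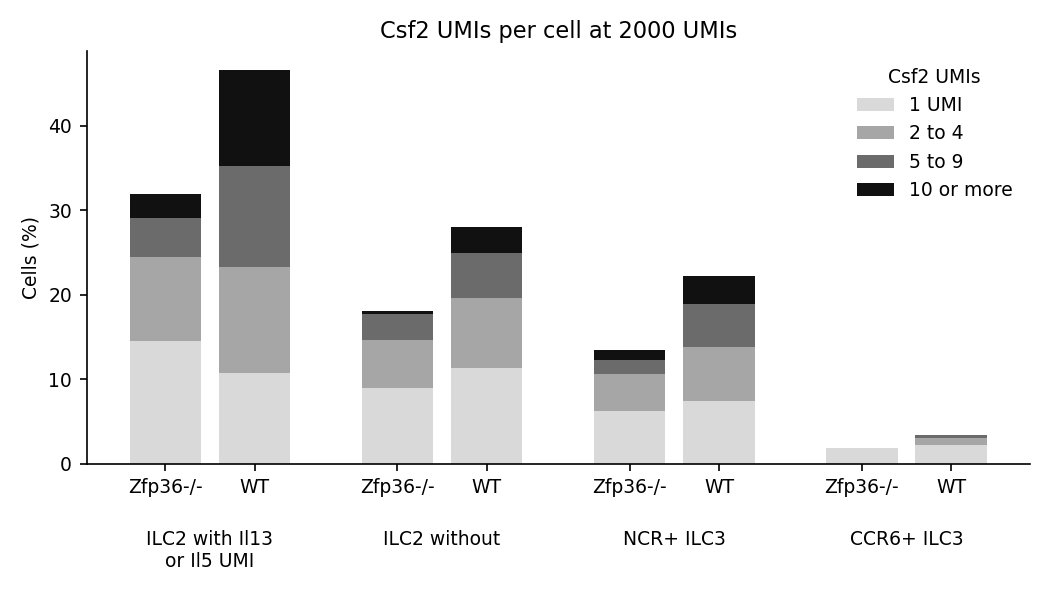
Percent of cells holding 1, 2 to 4, 5 to 9 or at least 10 Csf2 UMIs after thinning to 2000 UMIs, as stacked bars, for ILC2 with and without an Il13 or Il5 UMI, NCR+ ILC3 and CCR6+ ILC3, Zfp36-/- left of WT. Cells with at least 10 UMIs were 0.883% of Zfp36-/- ILC2 and 5.25% of WT ILC2 over both ILC2 classes.

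ILC2 with a transcript of Il13 or Il5, the type 2 cytokine genes, carried more Csf2 than the other ILC2 in both libraries. Those with such a UMI (242 Zfp36-/- and 160 WT cells) had Csf2 at 578 CPM in the Zfp36-/- library and at 1711 CPM in the WT library, a log2 ratio of -1.56 (-1.68 to -1.45). Those without (907 and 438 cells) had 271 CPM in the Zfp36-/- library and 578 CPM in the WT library, a log2 ratio of -1.09 (-1.20 to -0.99). The lower Zfp36-/- level was thus present in both classes. Whether a cell shows an Il13 or Il5 UMI depends on its depth, and the classes were chosen after the data had been seen.

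Within ILC2, cells with a Csf2 UMI more often held Areg and Il13, and the other effector transcripts were mixed. At 2000 UMIs, 6 of 16 effector genes were detected more often and 9 less often in Zfp36-/- ILC2 with a Csf2 UMI than in those without, against 14 and 1 in WT ILC2. How many of all genes were detected more often with Csf2 is not given here, so these tallies do not set the effector genes apart. The intervals lay apart for 2 genes in the Zfp36-/- library (Areg and Il13) and for 3 in the WT library (Areg, Il13 and Il5), each more often detected with Csf2. Areg, which encodes the tissue-repair factor amphiregulin, was detected in 26.1% of Zfp36-/- ILC2 with a Csf2 UMI and in 11.6% of those without, against 42.1% and 17.2% in WT ILC2. Il13 was detected in 18.5% of Zfp36-/- ILC2 with a Csf2 UMI and in 7.37% of those without, against 15.4% and 5.81% in WT ILC2. Il5 showed such a gap in the WT library and not in the Zfp36-/- library, and the difference between the gaps was not tested. It was found in 1.26% of Csf2-positive and 1.68% of other Zfp36-/- ILC2, and in 10.8% of Csf2-positive and 3.54% of other WT ILC2. Il4 was close between the classes, at 39.9% and 34.4% in the Zfp36-/- library and 46.7% and 42.9% in the WT library.

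ILC3 were divided by receptors that mark their subsets: CCR6, carried by lymphoid-tissue-inducer-like cells, and the natural cytotoxicity receptor encoded by Ncr1. CCR6+ ILC3 held a Ccr6 UMI and no Ncr1 UMI, NCR+ ILC3 the reverse, and double-negative ILC3 neither. ILC3 as a whole had Csf2 at 122 CPM (597 UMIs in 1169 cells) in the Zfp36-/- library and at 403 CPM (1970 UMIs in 1027 cells) in the WT library, a log2 ratio of -1.73 (-1.86 to -1.60). In ILC3, 1.01% of 9624 genes were 2-fold or more lower in the Zfp36-/- library, 2.69% were 2-fold or more higher, and the median log2 ratio was 0.16. The lower Csf2 level was seen in each of the 3 subsets named next, with intervals that overlap between CCR6+ and NCR+ ILC3.

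NCR+ ILC3 were the main Csf2-bearing ILC3. They had 219 CPM (199 to 239; 481 UMIs in 424 cells) in the Zfp36-/- library and 703 CPM (670 to 738; 1625 UMIs in 421 cells) in the WT library, a log2 ratio of -1.69 (-1.84 to -1.54). The subset held nearly equal numbers of cells in the libraries, and 0.803% of its genes were 2-fold or more lower in the Zfp36-/- library. At 2000 UMIs, 13.5% of Zfp36-/- NCR+ ILC3 (10.3 to 17.1) and 22.2% of WT NCR+ ILC3 (18.3 to 26.5) held a Csf2 UMI. As deposited, 13 Zfp36-/- and 45 WT cells of this subset held at least 10.

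CCR6+ ILC3 held little Csf2 in either library. They had 11 Csf2 UMIs in 277 Zfp36-/- cells (11.1 CPM, 5.54 to 19.9) and 63 UMIs in 360 WT cells (41.1 CPM, 31.6 to 52.5), a log2 ratio of -1.89 (-2.96 to -0.95). Of all genes in this subset, 1.22% were 2-fold or more lower. A Csf2 UMI was found in 2.89% of Zfp36-/- and 4.72% of WT CCR6+ ILC3 as deposited. The immunoglobulin-rich cells had 1.37% and 4.21%, with overlapping intervals. Those cells were deeper, and 2 of the Zfp36-/- ones held all 11 of their Csf2 UMIs. Among WT T cells, 1 of 105 Foxp3+ and 3 of 157 Cd8+ cells held a Csf2 UMI. Whether the CCR6+ share lay above free RNA was not tested. The mean was 0.0397 UMIs per Zfp36-/- and 0.175 per WT CCR6+ ILC3, against 0.0753 and 0.0421 per immunoglobulin-rich cell. NCR+ ILC3, described before, lay well above both. ILC3 with neither marker had 56.4 CPM in 432 Zfp36-/- cells and 273 CPM in 221 WT cells, a log2 ratio of -2.28 (-2.65 to -1.91), where 0.853% of genes were 2-fold or more lower. That ratio was -1.27 (-1.64 to -0.89) when the gates asked for 1 more marker gene, and -1.86 over all deposited barcodes. A single WT cell held 44.2% of the WT UMIs of this last subset, and its Zfp36-/- cells carried the myeloid transcript Il1b at 304 CPM, against 2.27 CPM in WT cells; its part in the result was not tested. Without the 5% of cells richest in Csf2 in each library, the ratio over all ILC3 was -2.08.

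In ILC3, Ncr1 was found more often, and Ccr6 less often, in cells with a Csf2 UMI. At 2000 UMIs, Ncr1 was detected in 53.2% of Zfp36-/- ILC3 with a Csf2 UMI and in 28.4% of those without, against 52.8% and 29.8% in WT ILC3. Ccr6 was detected in 6.33% and 19.6% of the same Zfp36-/- classes and in 6.30% and 27.4% of the WT classes. Of 16 effector genes, 12 were detected more often and 3 less often with Csf2 in Zfp36-/- ILC3, against 9 and 5 in WT ILC3. As in ILC2, these tallies have no share over all genes beside them and do not set the effector genes apart. Il22, the gene of the epithelial barrier cytokine IL-22, was detected in 51.9% of Csf2-positive and 28.7% of other Zfp36-/- ILC3, and in 31.5% of Csf2-positive and 23.5% of other WT ILC3. Tnf, the gene of the inflammatory cytokine TNF, had its wider gap in the WT library, at 19.0% and 12.9% in Zfp36-/- ILC3 and 31.5% and 12.4% in WT ILC3. Within NCR+ ILC3 alone, Il22 was detected in 51.8% of Csf2-positive and 23.9% of other Zfp36-/- cells, and in 29% and 16.3% of the WT cells.

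Splitting ILC3 by Il22 gave a lower Csf2 level in the Zfp36-/- library in both classes. ILC3 with an Il22 UMI had Csf2 at 203 CPM in 408 Zfp36-/- cells and at 627 CPM in 314 WT cells, a log2 ratio of -1.62. ILC3 without one had 71.2 CPM in 761 Zfp36-/- cells and 297 CPM in 713 WT cells, a log2 ratio of -2.06. Il22 itself was at 4166 CPM in Zfp36-/- and 1471 CPM in WT CCR6+ ILC3, a log2 ratio of 1.5 (1.43 to 1.58), the opposite direction to Csf2 in the same cells.

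ILC1 and NK cells, the ILCs that express T-bet or Eomes, were few, and their Csf2 levels had overlapping intervals. They had 43 UMIs in 77 Zfp36-/- cells (130 CPM, 93.9 to 175) and 45 UMIs in 75 WT cells (104 CPM, 75.8 to 139). The log2 ratio was 0.32, with an interval of -0.32 to 0.96 that spans 0. In this gate 1.7% of genes were 2-fold or more lower and 5.24% were 2-fold or more higher in the Zfp36-/- library. The difference between this ratio and that of ILC2 was not tested.

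In T cells, on a small number of Zfp36-/- cells, Csf2 was higher in the Zfp36-/- library. They had 53 UMIs in 44 Zfp36-/- cells (208 CPM, 155 to 271) and 247 UMIs in 1107 WT cells (40.2 CPM, 35.4 to 45.6), a log2 ratio of 2.37 (1.91 to 2.80). In this gate, 8.84% of genes were 2-fold or more higher and 8.33% were 2-fold or more lower in the Zfp36-/- library. The few Zfp36-/- cells also carried more ILC transcripts: the summed ILC3 list was at 1022 CPM against 380 CPM in WT, the summed ILC2 list at 587 CPM against 349 CPM, Il22 at 349 CPM against 14.5 CPM, and the summed T-cell list at 2675 CPM against 4681 CPM. The ILC3 list is not particular to ILC3, since its sum was at 1197 CPM in Zfp36-/- and 1247 CPM in WT immunoglobulin-rich cells. The part of these transcripts in the result was not tested, and the sort, given above, cannot be told apart from the genotype here. Macrophage markers were at 0 for 8 of 8 genes in these Zfp36-/- cells.

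The kinds of T cell also differed between the libraries. Cells with a Trac transcript, encoding the alpha chain of the T-cell receptor, were 16 in the Zfp36-/- library and 1021 in the WT library. They had Csf2 at 339 CPM (28 UMIs) in Zfp36-/- cells and at 31.3 CPM (178 UMIs) in WT cells, a log2 ratio of 3.44 (2.81 to 4.02). Over the whole T-cell gate, the T-cell gene Cd5 was detected in 9.09% of Zfp36-/- and 54.0% of WT cells, and Cd3e in 97.7% and 97.6%. Cells with a Trdc or Tcrg-C transcript and no Trac UMI, the pattern of γδ T cells, were 27 and 74. Their Csf2 level was 156 CPM (25 UMIs) in Zfp36-/- cells and 164 CPM (68 UMIs) in WT cells, a log2 ratio of -0.07 (-0.80 to 0.61) that spans 0. In WT cells, 105 Foxp3+ regulatory T cells held 1 Csf2 UMI and 157 Cd8+ T cells held 6.

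Ordered by level, the Zfp36-/- library ran from ILC2 (346 CPM) through NCR+ ILC3 (219), T cells (208), ILC1/NK (130) and double-negative ILC3 (56.4) to CCR6+ ILC3 (11.1). The intervals of NCR+ ILC3 and T cells overlapped, and those of T cells and ILC1/NK overlapped. The WT library ran from ILC2 (926 CPM) through NCR+ ILC3 (703), double-negative ILC3 (273), ILC1/NK (104) and CCR6+ ILC3 (41.1) to T cells (40.2). There the intervals of the last pair overlapped, and the other neighbours did not. These intervals take each UMI as independent, and a single cell, described above, held a large part of the WT double-negative UMIs. The order without that cell was not tested.

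ILC2 and NCR+ ILC3 together held most of the Csf2 transcript in both libraries. ILC2 held 65.3% of Csf2 UMIs in the Zfp36-/- library, where they held 25.2% of all UMIs, and 53.9% in the WT library, where they held 16.8% of all UMIs. NCR+ ILC3 held 13.2% and 23.7% of Csf2 UMIs. T cells held 1.46% of Zfp36-/- Csf2 UMIs and 3.61% of WT Csf2 UMIs, although they had 25.8% of all UMIs in the WT library. ILC1/NK held 1.18% and 0.657%. CCR6+ ILC3 held 0.303% and 0.920%.

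**Figure D3:**
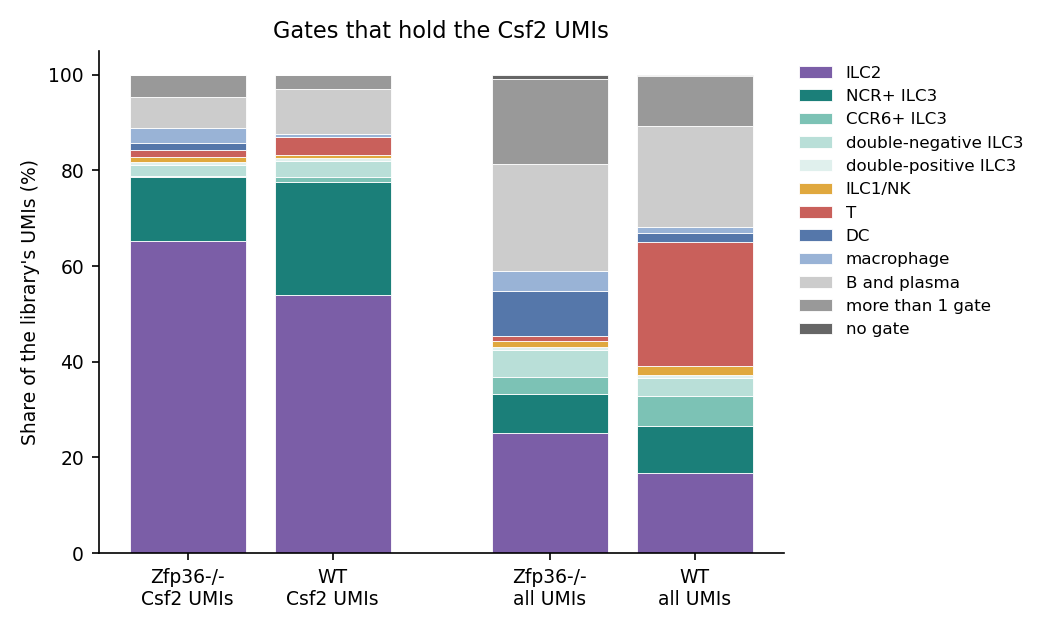
Share of each library's Csf2 UMIs (left pair) and of all its UMIs (right pair) held by each cell gate, as stacked bars in percent, Zfp36-/- left of WT. ILC2 held 65.3% of Csf2 UMIs in the Zfp36-/- library and 53.9% in the WT library.

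A further 6.35% of Zfp36-/- and 9.38% of WT Csf2 UMIs fell in the B and plasma-cell gate. Nearly all of it, 6.02% and 9.32% of Csf2 UMIs, was in cells in which the immunoglobulin and B-cell list made up under 1% of UMIs. These cells (181 Zfp36-/- and 172 WT) had Csf2 at 155 CPM and 533 CPM and passed that gate on few immunoglobulin UMIs. With these cells returned to the other gates, ILC2 were 1250 Zfp36-/- and 676 WT cells, and ILC3 were 1231 and 1113.

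The macrophage gate held Csf2 UMIs in both libraries, all of them in cells that also carried a lymphoid UMI, from a short list of lymphoid genes that includes Il7r, Thy1 and Gata3. There were 114 Csf2 UMIs in Zfp36-/- macrophage-gate cells and 52 in WT macrophage-gate cells, with 0 in the 32 Zfp36-/- and 10 WT cells without a lymphoid UMI. The summed ILC3 list was at 1679 CPM in the Zfp36-/- macrophage gate and at 2545 CPM in the WT macrophage gate. That list is not particular to ILC3, as given above. Il7r was at 746 CPM in the Zfp36-/- and 1021 CPM in the WT macrophage gate. In the dendritic-cell gate, 51 Csf2 UMIs were found in Zfp36-/- cells, 50 of them in cells with a lymphoid UMI, and 0 in WT cells. Receptor chains in myeloid cells are therefore given with and without cells that hold a lymphoid UMI.

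Csf2ra, the chain that binds GM-CSF itself, was at a similar level in the dendritic-cell gates of the libraries. It had 720 UMIs in 118 Zfp36-/- cells (279 CPM) and 137 UMIs in 22 WT cells (296 CPM), a log2 ratio of -0.09 (-0.35 to 0.19). In the dendritic-cell gate, 10.2% of genes were 2-fold or more higher in the Zfp36-/- library and 2.88% were 2-fold or more lower. Dendritic cells with a Plet1 UMI, a gene linked to migratory intestinal dendritic cells, had Csf2ra at 299 CPM in 97 Zfp36-/- cells and 408 CPM in 8 WT cells, a log2 ratio of -0.45 (-0.79 to -0.09). Those with a UMI of Xcr1 or Clec9a, the markers of type 1 conventional dendritic cells, and no Plet1 had 206 CPM in 7 Zfp36-/- cells and 223 CPM in 12 WT cells, a log2 ratio of -0.11 (-0.82 to 0.56).

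Csf2rb, the signalling chain, was higher in Zfp36-/- dendritic cells. It had 2039 UMIs in the 118 Zfp36-/- cells (791 CPM) and 78 UMIs in the 22 WT cells (169 CPM), a log2 ratio of 2.23 (1.90 to 2.57). The direction was the same in both named classes of dendritic cell, and the ratio was smaller in each. Plet1+ cells had 887 CPM in Zfp36-/- cells (1964 UMIs) and 331 CPM in WT cells (64 UMIs), a log2 ratio of 1.42 (1.06 to 1.81). A single WT cell held 21 of those 64 UMIs. Xcr1/Clec9a cells had 192 CPM in Zfp36-/- cells (27 UMIs) and 52.8 CPM in WT cells (13 UMIs), a log2 ratio of 1.86 (0.86 to 2.94).

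The make-up of the dendritic-cell gate moved with this result. Plet1+ cells, the class with the higher Csf2rb level, were 97 of 118 Zfp36-/- cells and 8 of 22 WT cells. Without cells holding a lymphoid UMI, Csf2rb was at 711 CPM in 44 Zfp36-/- cells and at 195 CPM in 10 WT cells, a log2 ratio of 1.87. Cells that passed both myeloid gates had 921 CPM in 99 Zfp36-/- cells and 449 CPM in 18 WT cells, a log2 ratio of 1.04 (0.81 to 1.27). When the gates asked for 1 more marker gene, the ratio in dendritic cells was 1.41, on 155 and 26 cells.

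**Figure D4:**
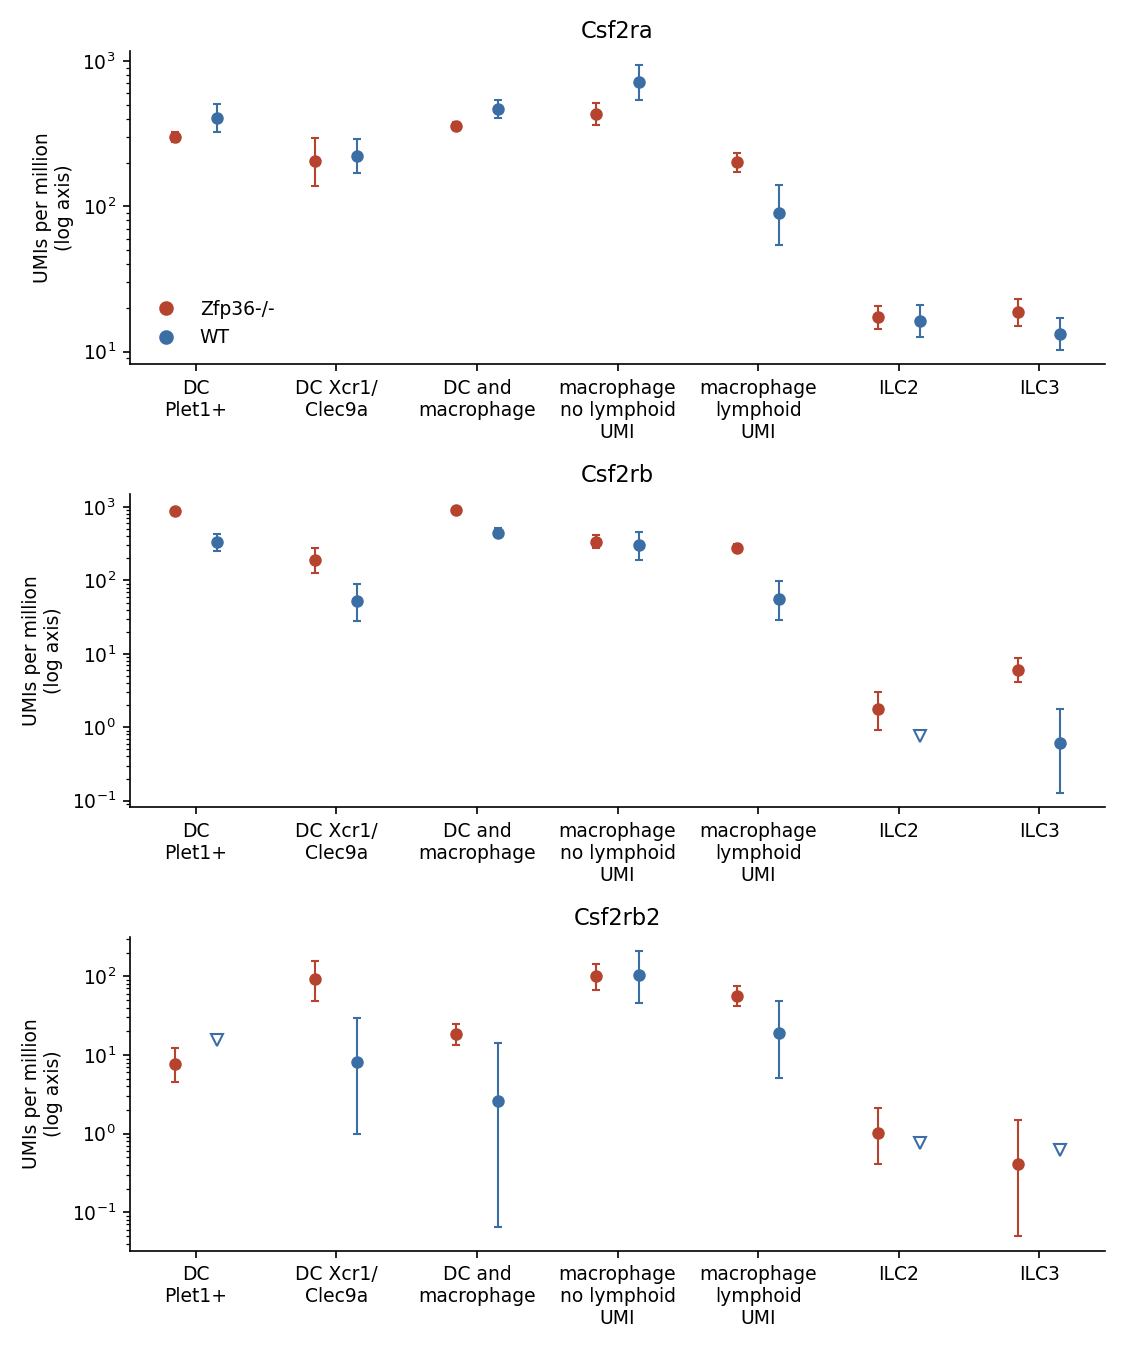
Levels of Csf2ra, Csf2rb and Csf2rb2 in CPM (log axes, 95% Poisson intervals) in dendritic-cell and macrophage classes and in ILC2 and ILC3, Zfp36-/- left of WT; open triangles mark the level of 3 counts where a library had 0 UMIs. Csf2ra had ratios of either sign between myeloid classes. It was at 299 CPM in Zfp36-/- and 408 CPM in WT Plet1+ cells, and at 202 and 89.7 CPM in macrophages with a lymphoid UMI. Csf2rb was higher in the Zfp36-/- dendritic-cell classes, 887 CPM against 331 CPM in Plet1+ cells.

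Macrophages, named here by complement C1q genes, Csf1r and Adgre1 among others, gave a result for Csf2rb that depended on which cells were kept. In the whole gate, it had 342 UMIs in 107 Zfp36-/- cells (292 CPM) and 35 UMIs in 45 WT cells (122 CPM), a log2 ratio of 1.26 (0.76 to 1.81). In this gate, 8.76% of genes were 2-fold or more higher and 2.76% were 2-fold or more lower in the Zfp36-/- library. Without cells holding a lymphoid UMI, Csf2rb was at 338 CPM in 32 Zfp36-/- cells and 301 CPM in 10 WT cells, and the log2 ratio of 0.17 (-0.50 to 0.89) spanned 0. In cells with a lymphoid UMI it was at 276 CPM in 75 Zfp36-/- cells and 56.7 CPM in 35 WT cells, a log2 ratio of 2.28. In the whole gate, the summed macrophage list was at 7411 CPM in Zfp36-/- cells and 9064 CPM in WT cells, and Il7r was at 746 CPM in Zfp36-/- cells and 1021 CPM in WT cells; their part in the result was not tested.

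Csf2ra in macrophages was likewise at 262 CPM (307 UMIs) in Zfp36-/- cells and 257 CPM (74 UMIs) in WT cells over the whole gate, a log2 ratio of 0.03 (-0.34 to 0.41). Without cells holding a lymphoid UMI it was at 434 CPM in Zfp36-/- cells and 721 CPM in WT cells, a log2 ratio of -0.73 (-1.20 to -0.25). Of the 55 UMIs in WT cells, 18 came from 1 cell. In macrophages with a lymphoid UMI, Csf2ra was at 202 CPM in Zfp36-/- cells and 89.7 CPM in WT cells, a log2 ratio of 1.17 (0.49 to 1.94). In cells that passed both myeloid gates it was at 356 CPM in Zfp36-/- cells and 469 CPM in WT cells, a log2 ratio of -0.40 (-0.63 to -0.16). The sign of the ratio in macrophages thus differed between choices of cells.

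Csf2rb2, the paralog that pairs with the IL-3 receptor, was counted at low numbers. Macrophage-gate cells had 79 UMIs (67.4 CPM) in the Zfp36-/- library and 12 UMIs (41.7 CPM) in the WT library, a log2 ratio of 0.69 with an interval of -0.19 to 1.71 that spans 0. Dendritic cells had 40 UMIs (15.5 CPM) in Zfp36-/- cells and 2 UMIs (4.32 CPM) in WT cells, a log2 ratio of 1.84 (-0.10 to 4.94). Of these, 13 Zfp36-/- and 2 WT UMIs were in the Xcr1/Clec9a class of 7 and 12 cells, and 17 and 0 were in the Plet1+ class. A Csf2rb UMI was found in 111 of 118 Zfp36-/- and 14 of 22 WT dendritic cells. In dendritic cells with Csf2rb2, 18 of 20 Zfp36-/- cells also held a Csf2rb UMI, and the 1 WT cell did as well. The similarity of the paralogs bears on this count, and its part was not tested.

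Most dendritic cells held transcripts of both parts of the receptor. Csf2ra and Csf2rb were both detected in 102 of 118 Zfp36-/- dendritic cells (86.4%, 78.9 to 92.0) and in 13 of 22 WT dendritic cells (59.1%, 36.4 to 79.3), at medians of 23077 and 18779.5 UMIs. Thinned to 2000 UMIs, the shares were 25.6% of Zfp36-/- and 9.09% of WT cells, with intervals of 18.0 to 34.5 and 1.12 to 29.2 that overlap. Among cells that passed both myeloid gates, 93 of 99 Zfp36-/- cells and 18 of 18 WT cells held both chains. Macrophages without a lymphoid UMI held both in 68.8% of 32 Zfp36-/- cells and 60% of 10 WT cells. Both chains were found in 1.37% of Zfp36-/- and 2.11% of WT immunoglobulin-rich cells.

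The lymphoid cells that held Csf2 transcripts had little or no beta chain. Csf2rb had 12 UMIs in 8 of 1149 Zfp36-/- ILC2 and 0 UMIs in 598 WT ILC2, which allows up to 0.502% of cells with a UMI. It had 30 UMIs in 13 of 1169 Zfp36-/- ILC3 and 3 UMIs in 3 of 1027 WT ILC3. These are means of 0.0104 UMIs per Zfp36-/- ILC2 and 0.0257 per Zfp36-/- ILC3, against 0.144 per Zfp36-/- and 0.168 per WT immunoglobulin-rich cell. Since WT ILC2 held 0 UMIs, the immunoglobulin-rich cells do not give the Csf2rb level of free RNA in ILCs. The ILC3 subsets of the Zfp36-/- library had 0.0325 (CCR6+), 0.0165 (NCR+) and 0.0324 (double-negative) UMIs per cell, also below the immunoglobulin-rich cells. On the CPM scale the CCR6+ (9.08 CPM) and double-negative (9.17 CPM) values exceeded the 4.70 CPM of those deeper cells. T cells had 0 Csf2rb UMIs in the Zfp36-/- library and 2 in the WT library, and ILC1/NK had 1 and 0. Both chains were found together in 2 of 1149 Zfp36-/- and 0 of 598 WT ILC2.

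Csf2ra UMIs were found at a low level in ILCs of both libraries. It was at 17.2 CPM (118 UMIs) in Zfp36-/- ILC2 and 16.3 CPM (65 UMIs) in WT ILC2, and at 18.7 CPM (92 UMIs) in Zfp36-/- ILC3 and 13.3 CPM (65 UMIs) in WT ILC3. Per cell these counts were close to those of the immunoglobulin-rich cells. A Csf2ra UMI was found in 9.75% of Zfp36-/- and 10.2% of WT ILC2, against 9.59% of Zfp36-/- and 10.5% of WT immunoglobulin-rich cells. The means were 0.103 and 0.109 UMIs per ILC2, against 0.103 and 0.116 per immunoglobulin-rich cell. ILC3 had a Csf2ra UMI in 6.67% of Zfp36-/- and 5.84% of WT cells. In CPM the deeper immunoglobulin-rich cells were lower, at 3.36 in the Zfp36-/- library and 3.02 in the WT library. WT T cells held a Csf2ra UMI in 4.79% of 1107 cells as deposited. After thinning to 2000 UMIs, the shares were 3.05% of WT ILC2 (1.81 to 4.77) and 1.84% of WT T cells (1.13 to 2.83). These references differ, so no level of free RNA was set, and whether ILCs express Csf2ra was not tested. Csf2rb2 had 7 UMIs in Zfp36-/- ILC2, 6 of them in 1 cell, and 0 in WT ILC2.

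**Figure D5:**
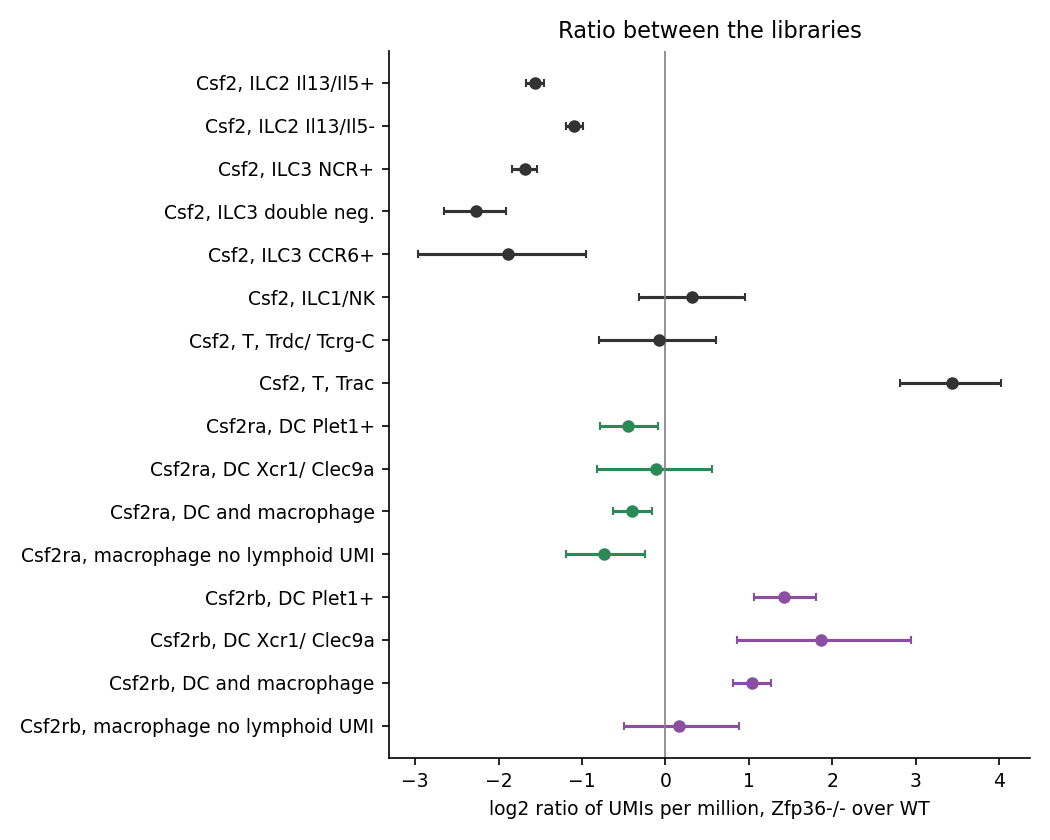
Log2 ratio of Zfp36-/- over WT with 95% counting intervals for Csf2 in lymphoid gates and for the receptor chains in myeloid classes; the vertical line marks 0. Csf2 lay below 0 in the ILC2 and ILC3 classes and above 0 in Trac+ T cells (3.44, on 16 Zfp36-/- cells), and Csf2rb lay above 0 in the dendritic-cell classes.

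The genes that act around GM-CSF were followed as a list of 92, of which those with at least 20 UMIs in a gate were measured. In ILC2, 71 were measured, 5 were 2-fold or more higher and 5 were 2-fold or more lower in the Zfp36-/- library, with a median log2 ratio of 0.16; over all genes with at least 20 UMIs, 4.38% were higher, 1.68% were lower and the median was 0.17. In ILC3, 75 were measured, 10 were higher and 3 lower, with a median of 0.28; over all genes, 3.94% were higher, 1.92% lower and the median was 0.15. None of the 14 listed factors that transcribe Csf2, members of the NFAT, NF-κB and AP-1 families among them, was past 2-fold in either gate, and their medians were -0.03 in ILC2 and 0.10 in ILC3. Of the 9 listed genes of transcript decay, Zfp36 was past 2-fold in both gates and no other was.

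Zfp36 was at 343 CPM in Zfp36-/- ILC2 and 734 CPM in WT ILC2 (log2 ratio -1.10), and at 306 CPM in Zfp36-/- ILC3 and 1147 CPM in WT ILC3 (-1.91). Areg was at 257 CPM in Zfp36-/- ILC2 and 632 CPM in WT ILC2 (-1.30), and Il5, whose receptor shares the common beta chain, was at 13.3 CPM and 46.2 CPM (-1.80). Il17a, the gene of the neutrophil-recruiting cytokine IL-17A, went the other way, with 26 UMIs in Zfp36-/- and 1 in WT ILC2 (3.92, interval 1.31 to 9.27) and 51 and 2 in ILC3 (4.67, 2.74 to 7.75). Il17f was at 49.1 CPM in Zfp36-/- ILC3 and 11.9 CPM in WT ILC3 (2.05). The other ILC2 genes past 2-fold that were named by rule were Ccl3, a chemokine, at 20.3 CPM in Zfp36-/- and 6.77 CPM in WT cells (1.58), and Socs3, a feedback inhibitor of cytokine signalling, at 11.1 CPM and 3.26 CPM (1.76). The remaining 4 in ILC2, named here after their values were seen, were Irf8 (1.58) and Il1b (1.80), which were higher, and Irf4 (-1.20) and Il22 (-1.25), which were lower. In ILC3, the myeloid genes Il1b (99.9 CPM in Zfp36-/- and 3.48 CPM in WT cells) and Spi1 (12.0 CPM in Zfp36-/- and 2.05 CPM in WT cells) were higher, beside a summed macrophage list of 32.2 CPM in Zfp36-/- and 17.0 CPM in WT ILC3; its part was not tested. The ILC3 genes that were lower beside Zfp36 were Ccl3 (-1.41) and Il2 (-1.22), also named after their values were seen.

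The motif searched in Csf2 was also present in effector transcripts with ratios of either sign. TATTTAT occurs 8 times in the 3′ untranslated region of Tnf, whose log2 ratio was -0.40 in ILC2 and -0.42 in ILC3. Il22 has 4 and had a ratio of 1.19 in ILC3. Il17a has 3, as has Il5. Ltb, which encodes lymphotoxin beta and has 0, had ratios of -0.50 in ILC2 and -0.67 in ILC3. These motif counts were added after the data had been seen, and Tnf, Il22 in ILC3 and Ltb fall outside the rule for named genes.

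In dendritic cells, genes of the list stood in both directions. Of 65 measured, over all roles from inducers to effectors, 7 were 2-fold or more higher and 8 were 2-fold or more lower in the Zfp36-/- library, where 12.6% of all genes were higher and 4.54% lower. None of the 9 listed signal transducers, among them Jak2, Stat5a and Stat5b, was past 2-fold in dendritic cells or macrophages, with medians of 0.27 and 0.19. Of the 8 STAT5 targets and feedback genes, 3 were higher in dendritic cells and 2 in macrophages. Socs2, a STAT5-induced feedback inhibitor, had 254 UMIs in Zfp36-/- and 1 UMI in WT dendritic cells, a log2 ratio of 5.51 (3.02 to 10.82). The others in dendritic cells, named after their values were seen, were the STAT5-induced feedback genes Cish, with 49 UMIs in Zfp36-/- and 2 UMIs in WT cells (2.14, interval 0.21 to 5.22), and Socs1, with 61 and 4 UMIs (1.45). In macrophages they were Socs3, given below, and Myc, with 36 UMIs in Zfp36-/- and 1 UMI in WT cells (3.15, 0.58 to 8.49). Socs2 was at 98.5 CPM in Zfp36-/- dendritic cells, against 827 CPM in Zfp36-/- ILC1/NK and 576 CPM in Zfp36-/- T cells. The make-up and the lymphoid UMIs of the myeloid gates, given above, also bear on these feedback genes. Their part was not tested.

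Irf8, the transcription factor of type 1 conventional dendritic cells, was at 283 CPM in Zfp36-/- and 1202 CPM in WT dendritic cells (log2 ratio -2.09), beside 7 and 12 cells of the Xcr1/Clec9a class. Il1b, the gene of interleukin-1β, which is known to make ILC3 produce GM-CSF, was at 1667 CPM in Zfp36-/- and 534 CPM in WT dendritic cells (1.64) and at 3658 and 1382 CPM in macrophages (1.40). Ccl4, a chemokine gene, was at 56.2 CPM in Zfp36-/- and 277 CPM in WT dendritic cells (-2.30), and Tnf had 10 UMIs in Zfp36-/- and 14 UMIs in WT dendritic cells (-2.96). Jun, an AP-1 factor, was at 332 CPM and 675 CPM (-1.02). In macrophages, Socs3 was at 263 CPM in Zfp36-/- and 55.5 CPM in WT cells (2.24), and Cebpb, a myeloid transcription factor, was at 1473 and 660 CPM (1.16). The lymphoid cytokine gene Il22 was at 285 CPM in the Zfp36-/- macrophage gate and 830 CPM in the WT macrophage gate (-1.54), beside the lymphoid transcripts given above.

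In macrophages as a whole, 10 of 75 measured genes of the list were 2-fold or more higher and 5 were lower, where 11.9% of all genes were higher and 4.33% lower. In T cells, 13 of 70 were higher and 7 lower, where 14.9% of all genes were higher and 7.02% lower. In ILC1/NK, 5 of 57 were higher and 3 lower, where 9.02% were higher and 3.01% lower. Shares of the list this close to the share over all genes do not set it apart.

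The genes whose level followed each member most closely were found over 20 points, each a gate in 1 library, by Pearson's r on log2(CPM + 10) among 9734 genes. These are descriptions; the points share libraries and depth. For Csf2 they were Tnfsf14, which encodes the TNF-family cytokine LIGHT (r = 0.92), Rab4a (0.89), Ltb4r1, a leukotriene receptor gene (0.88), Selenbp1 (0.87) and 1810011H11Rik (0.86). For Csf2ra they were Pld4 and Ppfia4 (each 0.98), and Asah1 and Cfp (each 0.97). For Csf2rb they were Siglece, Pilra and Spint1 (each 0.99), and Gm34084 and Gpr141 (each 0.98). For Csf2rb2 they were Adgre1, the gene of the macrophage antigen F4/80, and Ifi207 (each 0.98), Clec4n (0.97), and Pla2g7 and Klra2 (each 0.96).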

How the data were processed

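Single-cell libraries were made with the 10x Chromium Single Cell 3′ v2 kit, per the labels' protocols. The deposited values are raw UMI counts per gene and cell, made by the authors with Cell Ranger 3.1.0, per the file headers; Cell Ranger and mm10 are named in the submitters' processing notes. The annotation release and the rule for reads that match several genes are not given in the sources used here.

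Cells with at least 500 genes and at most 10% mitochondrial UMIs were kept. Scrublet in scanpy 1.11.5 marked 5 Zfp36-/- and 37 WT cells as doublets, which were removed; these are few, so doublets are likely to remain, and an alternative left out the 5% of cells with the highest doublet scores. Cells passing more than 1 non-ILC gate, or tied between ILC gates, were left ambiguous. ILC3 subsets were set by UMIs of their marker genes. UMIs were summed per gate and library and divided by the gate's total (CPM). Levels have exact Poisson intervals, ratios the exact interval of the split of UMIs, and shares Clopper-Pearson intervals, from scipy 1.17.1; what a count of 0 allows is given as 3 counts over the number of cells. Thinning drew 2000 UMIs per cell and left out shallower cells. The scripts were tested on simulated counts. Gene models and untranslated regions came from GENCODE M21 on GRCm38 (mm10), matched by gene ID for 31011 of 31053 genes; the longest annotated 3′ untranslated region per gene was searched.

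The members, marker lists and pathway lists were chosen with earlier results of these data known. The classes by Plet1, Xcr1/Clec9a, lymphoid UMIs, Trac, Il13/Il5, Il22 and immunoglobulin share were added after the data had been seen. From the pathway list, at most 6 genes per gate are named: those past 2-fold, with 20 or more UMIs, whose interval end nearest 0 lay farthest from it. A few genes that this rule or the likeness rule would name are not reported here.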

Additional observations from a re-analysis of the deposited data

Results flagged for a closer look

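The log2 ratio of Csf2, Zfp36-/- over WT, was 2.37 in T cells and had the opposite sign in ILC2 (-1.42), ILC3 (-1.73) and the macrophage gate (-0.89). The difference between these gates was not tested, since each genotype is 1 library. It was 3.44 in T cells with a Trac UMI and -0.07 in those with a Trdc or Tcrg-C UMI only, on 44 Zfp36-/- T cells in all.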

How the results depend on the processing

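No paired analysis was possible because each genotype is 1 library, and for the same reason no replicate could be left out. Csf2 in ILC2 kept its sign in 10 of 10 alternatives, with log2 ratios of -1.34 with Leiden clusters, -1.51 with mitochondrial and ribosomal genes left out of the total, and -1.80 without the 5% of cells richest in Csf2. In ILC3 it kept its sign in 10 of 10, with -2.08 without the richest cells; in its double-negative subset it was -1.27 with 1 more marker gene. In T cells it was 3.89 with 1 more marker gene per gate, 3.37 with Leiden clusters (6 Zfp36-/- cells), 2.81 with equal weight per cell and 9.05 without the richest cells, where 1 WT UMI was left. In ILC1/NK it ran from -0.17 to 0.89. Csf2ra in dendritic cells was -0.36 after thinning. Csf2ra in macrophages had the main sign in 5 of 11 alternatives, at -0.37 with Leiden clusters, 0.50 without the richest cells, 2.08 after thinning and -0.73 without cells holding a lymphoid UMI. Csf2rb in dendritic cells kept its sign in 11 of 11, at 1.41 with 1 more marker, 1.30 with Leiden clusters, 1.35 with ambiguous cells regated, 1.87 without lymphoid UMIs, 2.86 without the richest cells and 3.17 after thinning. Csf2rb in macrophages kept its sign in 11 of 11, at 0.72 with 1 more marker, 0.71 with Leiden clusters, 1.94 without the richest cells and 0.17 without lymphoid UMIs. Csf2rb2 had the main sign in 5 of 8 alternatives in dendritic cells and 10 of 11 in macrophages. Csf2 over all cells was -0.92 at the WT gate shares. With a minimum of 200 UMIs in place of 50, 122 genes were higher and 34 lower in ILC2 (285 and 89 with 50), and 104 and 34 in ILC3 (259 and 97). The cause of these changes was not tested. The number of cells limits the WT dendritic-cell classes named and the WT macrophages without a lymphoid UMI, of 8 to 22 cells each.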
